A study of Mus musculus with 6 samples.

Results

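The genes described here encode the nuclear subunits of respiratory complex I in mouse hematopoietic stem cells, the bone marrow cells that give rise to all blood lineages. They were taken by name, as every gene whose symbol is Nduf followed by a, b, c, s or v and a number, without assembly factors and pseudogenes. Of 22969 gene identifiers with counts, 32 that met this rule are described, 5 core and 27 accessory subunits, and all 32 passed the filter on low counts. The rule also matches Ndufs3, Ndufa3 and Ndufa4, which are not analysed here.

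RNA was sequenced from about 500 sorted cells per mouse, taken from C57BL/6 bone marrow by a gate for cells without lineage markers that carry Sca-1, c-Kit and CD150 and lack CD48. There were 3 control libraries, of genotype Rbfox2-fl/fl without Cre, and 3 libraries of genotype Vav1-cre; Rbfox2-fl/fl. By label, all 6 libraries came from mice with the floxed allele, so the groups differ by label in the Cre transgene. Its Vav1 promoter is active across blood cells and not in stem cells alone. By its title, the series asks what Rbfox2, a splicing regulator that binds RNA, does for the self-renewal and the proteostasis of these cells.

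Complex I, the NADH:ubiquinone oxidoreductase, is the largest complex of the respiratory chain. Its peripheral arm, which reaches into the mitochondrial matrix, takes electrons from NADH and passes them along a flavin and a row of iron-sulfur clusters to ubiquinone, and its membrane arm pumps protons. The core subunits do this chemistry and are shared with bacteria, with those of the membrane arm encoded in mitochondrial DNA, while the accessory subunits surround the core and are needed for assembly and stability. Hematopoietic stem cells are known for low use of respiration compared with their progeny.

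Total counts were between 47895459 and 55151484 in the controls, while the libraries labelled Rbfox2-deleted had 23474895 to 35650284, so depth differed between the groups. Members had between 363 and 63166 counts in any library. Controls 1 and 3 were nearly identical (chi-square divided by its degrees of freedom 3.44, against 156 to 808 for the other pairs of libraries) and were summed into 1 sample. All comparisons therefore set 2 control samples against 3 others. Whether controls 1 and 3 came from different mice cannot be told from the counts. Rbfox2 itself had 4.70 CPM (counts scaled to a common library size with TMM factors) in controls 1 and 3 together and 0.229 CPM in control 2, against 0.101, 2.26 and 0.257 CPM in the libraries labelled Rbfox2-deleted 1, 2 and 3. Control 2 was thus lower than the library labelled Rbfox2-deleted 2, so all directions in the text are those of the labels, not of a measured loss of Rbfox2. Xist and Eif2s3y, markers of female and male cells, put the libraries labelled Rbfox2-deleted 1 and 3 apart as female from the other samples. Of 12 stem cell marker genes 10 had over 1 CPM in every sample, and Fgd5 and Ctnnal1 did not. Summed CPM of the stem cell markers was 2040 and 2152 in the control samples, against 1760 to 1866 in the other libraries. Ly6a alone had 645 and 875 CPM in the control samples, against 392, 311 and 363 CPM in the others. Mllt3 and Ctnnal1 were also lower without overlap, Meis1 was higher without overlap, and the remaining stem cell markers overlapped. The sum thus does not give the direction of the single markers. Myeloid markers (549 to 813 against 405 to 532), B cell markers (226 to 316 against 127 to 212), megakaryocyte markers (301 to 317 against 52.3 to 238) and Ptprc, a marker of all leukocytes (70.2 to 73.6 against 34.5 to 39.5), were lower without overlap in the libraries labelled Rbfox2-deleted, and stroma and endothelium markers were higher (8.36 to 10.3 against 13.6 to 38.8). Erythroid markers (120 to 182 against 119 to 574) and T and NK cell markers (87.2 to 118 against 104 to 199) overlapped and were highest in the library labelled Rbfox2-deleted 1. All 3 libraries labelled Rbfox2-deleted also had fewer genes detected (14154 to 15972, against 16675 to 17087) and fewer counts from mitochondrial genes (3.90% to 5.19%, against 5.52% to 5.59%). The part of these differences in the results was not tested. Cd48 had no counts outside the library labelled Rbfox2-deleted 3, where it had 0.0772 CPM.

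Most complex I genes had lower values in the libraries labelled Rbfox2-deleted, and 2 core genes had higher ones. Of 32 members, 30 lay below control (93.8%, against 46.5% of all genes tested) and 2 above. Their median log2 fold change was -0.54, against 0.11 over 12350 genes tested. After a correction for transcript length only 6 lay below control, while 24 lay below the median of all genes, which was then 0.43. Without that correction the median of the members lay at a distance of -0.65 from that of all genes. This distance was -0.23 with limma-voom and -0.21 with a replicate block, where the median of all genes was -0.32 and -0.27. With sex as a covariate the distance was -0.48, with a median of -0.10 for all genes. Both control samples and the library labelled Rbfox2-deleted 2 were male by their markers. Every value with sex in the model therefore compares the groups through that library alone. The 2 members above control were Ndufs1 and Ndufv1, both large core subunits of the peripheral arm. The samples of the 2 groups did not overlap for 22 members that were lower (68.8%), where 17.2% of all genes tested were lower in this way, and for 2 that were higher, where 14.9% of all genes were. In edgeR's quasi-likelihood test no member passed the adjusted threshold of 0.05, and neither did any other gene (0% of 12350). At an unadjusted p under 0.05 there were 11 members lower, against 4.56% of all genes, and 0 higher, against 5.33%. DESeq2 called 477 of 14137 genes (3.37%) and 0 members, and limma-voom called 0 genes. The number of members at an unadjusted p under 0.05, 11 in all (34.4%, against 9.89% of all genes), moved with the samples, and so did the share of all genes. It was 24 (75.0%, against 23.7%) without the library labelled Rbfox2-deleted 1, 3 (9.38%, against 7.45%) without the library labelled Rbfox2-deleted 2 and 5 (15.6%, against 9.21%) without the library labelled Rbfox2-deleted 3. It was 5 (15.6%, against 4.27%) without controls 1 and 3, and 1 (3.13%, against 3.49%), no more than the background, without control 2. With the sex of the mouse in the model it was 1 (3.13%, against 3.00%). With a correction for transcript length, coding length or GC it was 0, against 4.31%, 5.04% and 5.48% of all genes. In bulk RNA, fewer cells of a type and less RNA per cell cannot be told apart.

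As a share of all counts, the 32 genes together took 1.24% in control 1, 1.39% in control 2 and 1.25% in control 3, against 0.934%, 0.993% and 0.938% in the libraries labelled Rbfox2-deleted 1, 2 and 3. Every control library was thus above every other library. The control samples differed among themselves too. Control 2 was higher than controls 1 and 3 together for 30 of 32 members, with a median log2 difference of 0.24. The median log2 ratio to control was -0.28, -0.56 and -0.75 in the libraries labelled Rbfox2-deleted 1, 2 and 3, where the median of all genes was -0.45, -0.02 and 0.05. In the first of these libraries, which stands apart from the others over all genes, the members lay above the median of all genes, and in the other two below it. Of 32 members, 22 were under both control samples in the library labelled Rbfox2-deleted 1, and 30 in each of the others. These are 68.8%, 93.8% and 93.8% of the members, where 51.8%, 40.3% and 38.6% of all genes tested were under both control samples in the same libraries.

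**Figure D1:**
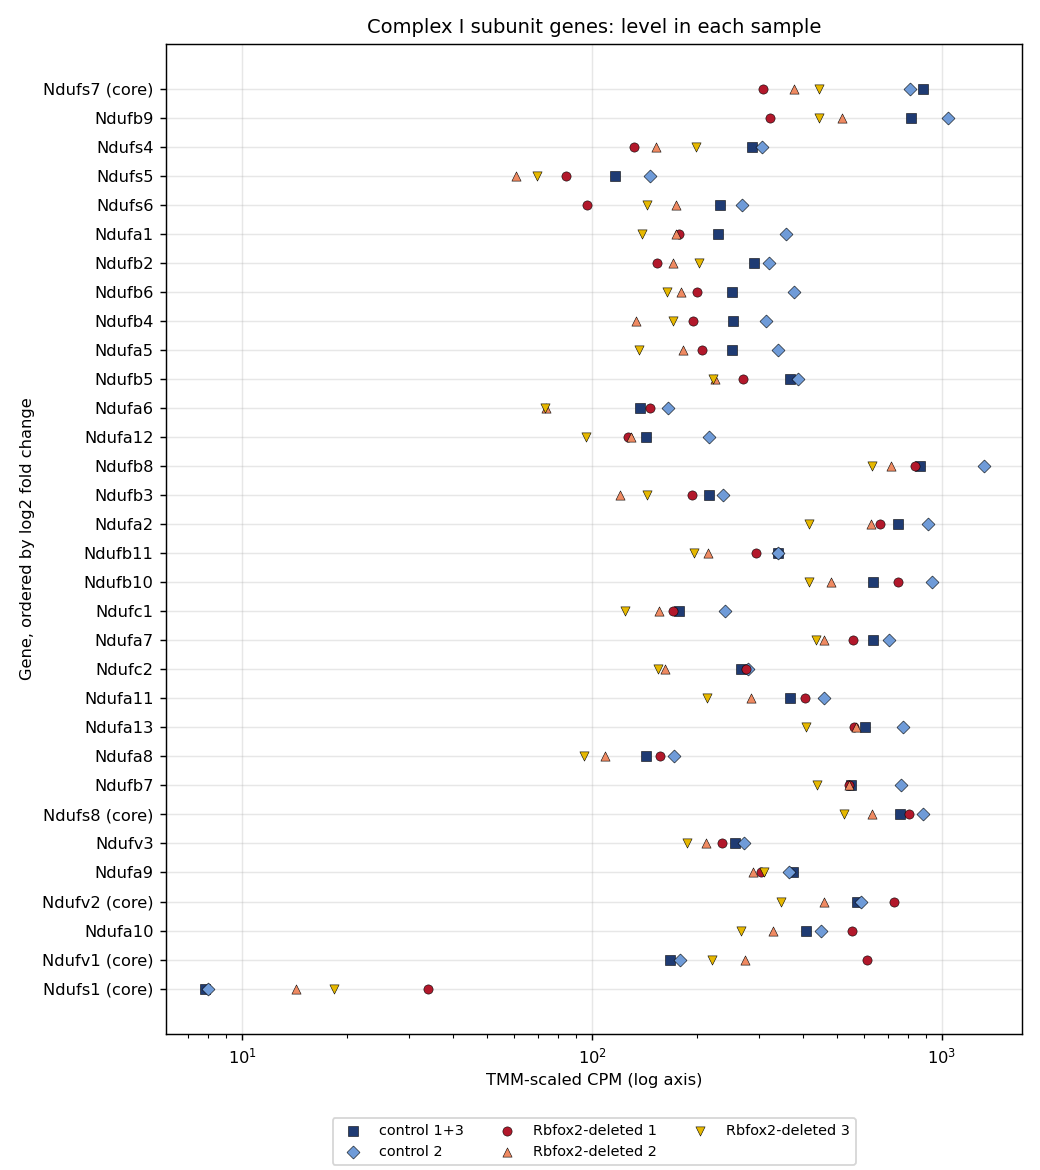
Level of each complex I gene (CPM scaled by TMM factors, log axis) in the 5 samples, with 1 point per sample, the squares standing for controls 1 and 3 summed, and genes ordered by log2 fold change. The 2 lowest rows, Ndufv1 and Ndufs1, have all points of the libraries labelled Rbfox2-deleted to the right of the controls, and Ndufs7 and Ndufb9 at the top have them to the left.

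The core subunits differed in direction among themselves. Ndufs7, which carries the last iron-sulfur cluster before ubiquinone, was the lowest of all members relative to control. It had 885 CPM in controls 1 and 3 together and 807 CPM in control 2, against 309, 378 and 446 CPM in the libraries labelled Rbfox2-deleted 1, 2 and 3. The groups did not overlap, and the highest of the 3 libraries was far under the lower control. The group means were 846 ± 54.9 CPM (SD, n = 2 control samples) and 377 ± 68.5 CPM (SD, n = 3), with a log2 fold change of -1.16 (SE 0.249, edgeR adjusted p = 0.387). Ndufs7 (ENSMUSG00000020153) lies on chromosome 10 of mm10 from 80249121 to 80256794 on the plus strand.

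Ndufv1, which binds NADH and the flavin and is the entry point of electrons, had the opposite direction. It had 167 CPM in controls 1 and 3 together and 178 CPM in control 2, against 612, 274 and 220 CPM in the libraries labelled Rbfox2-deleted 1, 2 and 3. The groups did not overlap, and the library labelled Rbfox2-deleted 1 was more than double the other 2. Its change on the log2 scale was 1.09 (SE 0.486, edgeR adjusted p = 0.545), and 0.50 without that library. Ndufv2, its direct neighbour in the arm, carries an iron-sulfur cluster. It had 572 CPM in controls 1 and 3 together and 588 CPM in control 2, against 727, 459 and 346 CPM in the libraries labelled Rbfox2-deleted 1, 2 and 3. Here the first of these libraries was above both controls and the other two were below them, at a log2 fold change of -0.19 (SE 0.349, edgeR adjusted p = 0.956).

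Ndufs1, the largest subunit, holds several of the iron-sulfur clusters that follow the flavin. It had 7.84 CPM in controls 1 and 3 together and 8.01 CPM in control 2, against 34.1, 14.3 and 18.3 CPM in the libraries labelled Rbfox2-deleted 1, 2 and 3. The groups did not overlap, at a log2 fold change of 1.49 (SE 0.928, edgeR adjusted p = 0.718). Ndufs1 had only 363 to 711 counts in the libraries. Of its exon bases, 6.05% are shared with Ino80dos, and some with Eef1b2. The part of that overlap in its values was not tested. Per kilobase of transcript, its control level of 2.98 CPM was the lowest of the 32 genes, with 69.8 CPM per kilobase for the next, Ndufb2. Per kilobase of coding sequence Ndufs1 was also lowest, at 3.63 CPM, with Ndufv1 next at 124 CPM. Ndufs8, which carries a pair of clusters between those of Ndufs1 and Ndufs7, had 757 CPM in controls 1 and 3 together and 882 CPM in control 2, against 803, 630 and 524 CPM in the libraries labelled Rbfox2-deleted 1, 2 and 3. Its groups overlapped through the first of these libraries, at a log2 fold change of -0.33 (SE 0.264, edgeR adjusted p = 0.817), which was -0.52 without that library and -0.21 without control 2 or without the library labelled Rbfox2-deleted 3. Ndufv1 (ENSMUSG00000037916, chromosome 19, 4007384 to 4012806), Ndufv2 (ENSMUSG00000024099, chromosome 17, 66078638 to 66101559), Ndufs1 (ENSMUSG00000025968, chromosome 1, 63143596 to 63176833) and Ndufs8 (ENSMUSG00000059734, chromosome 19, 3908863 to 3912774) are protein-coding genes on the minus strand.

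Promoters are shown because most members had values on the same side of control while core subunits divided. RefSeq windows of 300 bases (build GRCm38.p6, from 250 bases before the annotated start to 50 after) were at hand for 29 of 32 members. Ndufs7 was lowest relative to control, Ndufs4 was the lowest accessory subunit of its arm, and Ndufv1 was the highest core subunit with a window. The windows lie at chr10:80249199-80249498 on the plus strand for Ndufs7, chr13:114388045-114388344 on the minus strand for Ndufs4 and chr19:4012706-4013005 on the minus strand for Ndufv1. Each is written 5′ to 3′ with matches to the motifs searched in capitals.
Ndufs7: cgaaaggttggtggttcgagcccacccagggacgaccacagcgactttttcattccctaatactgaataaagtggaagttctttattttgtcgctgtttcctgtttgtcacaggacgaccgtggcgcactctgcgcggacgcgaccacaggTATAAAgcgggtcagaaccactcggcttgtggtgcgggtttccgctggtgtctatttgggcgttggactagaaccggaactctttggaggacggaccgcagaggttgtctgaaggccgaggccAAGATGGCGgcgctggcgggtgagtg
Ndufs4: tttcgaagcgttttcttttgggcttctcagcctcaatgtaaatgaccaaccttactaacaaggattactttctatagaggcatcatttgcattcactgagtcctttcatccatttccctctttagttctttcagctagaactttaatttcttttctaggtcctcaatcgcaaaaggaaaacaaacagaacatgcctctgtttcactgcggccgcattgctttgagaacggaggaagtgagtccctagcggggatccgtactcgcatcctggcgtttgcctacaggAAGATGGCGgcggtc
Ndufv1: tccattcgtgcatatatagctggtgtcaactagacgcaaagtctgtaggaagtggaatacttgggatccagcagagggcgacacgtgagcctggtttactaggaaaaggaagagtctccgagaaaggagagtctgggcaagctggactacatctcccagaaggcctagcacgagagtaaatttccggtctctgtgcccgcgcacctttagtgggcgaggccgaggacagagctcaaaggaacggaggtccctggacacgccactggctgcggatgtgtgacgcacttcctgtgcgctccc

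Exact matches on either strand were counted for 5 motifs. The YY1 motif AAGATGGCG was in the windows of 5 of 29 members (17.2%), Ndufs7, Ndufs4, Ndufs6, Ndufa9 and Ndufc1, and in 1.40% of all 32851 windows. Each of the 5 matches lay on the gene's own strand, with its first base 23 to 36 bases after the annotated start. The 5 genes had log2 fold changes of -1.16, -0.88, -0.86, -0.30 and -0.48, so they spanned nearly the whole range of members below control. The NRF1 motif GCATGCGC was in 3 of 29 (10.3%), Ndufa6, Ndufa8 and Ndufa11, against 2.71% of all windows. The ETS motif CCGGAAGT was in 0 of 29, against 3.89%. The SP1 motif GGGCGG was in 12 (41.4%, against 35.7%) and the TATA motif TATAAA in 3 (10.3%, against 13.6%). Ndufv1 held none of the 5 motifs. A match says only that these letters are in the window.

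Ratios of reads within a sample show this split without any scaling between libraries. The pairs were chosen after the values of their members were seen, so they are a description. In each pair the first gene has the longer coding sequence. These are 1392 bases for Ndufv1 and 2181 for Ndufs1, against 744 for Ndufv2, 672 for Ndufs7 and 537 for Ndufb9. A ratio therefore does not remove a shift that goes with coding length. The ratio of Ndufv1 to Ndufv2 reads was 0.292 in controls 1 and 3 together and 0.303 in control 2, against 0.842, 0.598 and 0.637 in the libraries labelled Rbfox2-deleted 1, 2 and 3. That of Ndufs1 to Ndufs7 was 0.00887 and 0.00992 in the control samples and 0.110, 0.0377 and 0.0411 in the others. That of Ndufv1 to the accessory subunit Ndufb9 was 0.205 and 0.171 in the control samples and 1.90, 0.531 and 0.494 in the others. The library labelled Rbfox2-deleted 1 was highest in all 3 pairs. In each pair the lowest of these 3 libraries was above the higher control. For Ndufs1 to Ndufs7 and Ndufv1 to Ndufb9 this follows from the single genes, which were already apart in opposite directions.

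**Figure D2:**
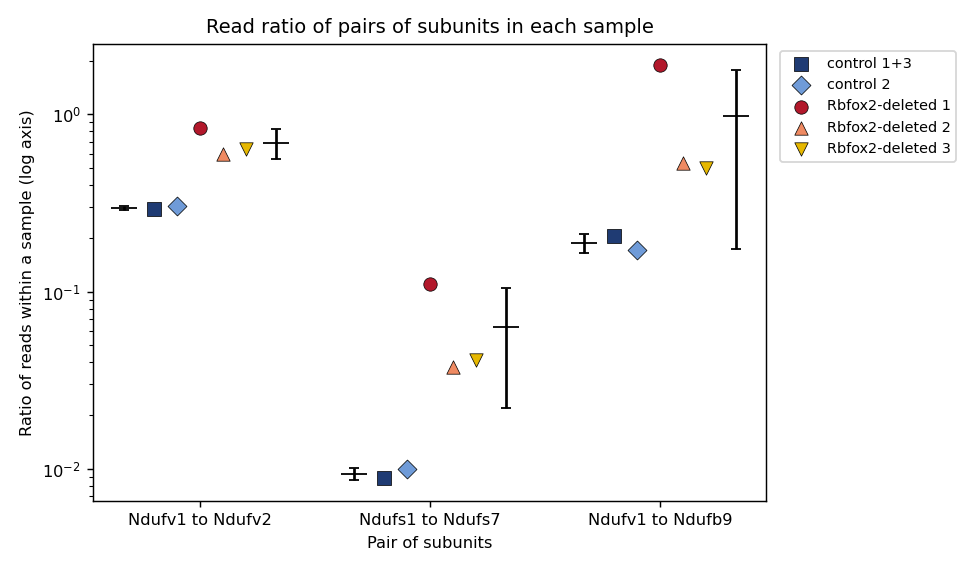
Ratio of reads of 3 pairs of subunits within each sample (log axis), with 1 point per sample and a bar for mean ± SD of each group (n = 2 control samples left of the points, n = 3 libraries labelled Rbfox2-deleted right of them). In each pair the points of the libraries labelled Rbfox2-deleted lie above both control points, for Ndufv1 to Ndufv2 at 0.598 to 0.842 against 0.292 and 0.303.

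Accessory subunits all lay on the same side. All 27 were below control with a median log2 fold change of -0.57. Of all genes tested 46.5% were below control, and 68.2% of those with a coding length of up to 600 bases. After a correction for transcript length only 5 of them were, with a median of 0.13. The median of all genes was then 0.43, and 22 of the 27 lay below it. The samples of the groups did not overlap for 21 of 27 (77.8%), all lower, against 17.2% of all genes tested and 36.4% of those with a coding length of up to 600 bases. The 9 accessory subunits of the peripheral arm had a median of -0.61 and the 18 subunits of the membrane arm, all accessory, one of -0.55. The difference between the arms was not tested. The median of the 5 core subunits was -0.19, against 0.11 for all genes, and stood 0.38 above that of the accessory subunits. It was 0.48 with a transcript length correction, 0.44 with a GC correction and 0.29 with a coding length correction. The median of all genes was 0.43, 0.46 and 0.40 under these corrections. With a replicate block and GC correction the core median was 0.12, against 0.016 for all genes. Without the library labelled Rbfox2-deleted 3 it was 0.02, against 0.014 for all genes. Without the library labelled Rbfox2-deleted 1 it was -0.52, against 0.016 for all genes. Of the core and accessory members, Ndufs7, Ndufb9, Ndufs4 and Ndufb2 were below control under all 20 other ways of processing. The gap between the medians was between 0.22 and 0.50 under them.

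In the membrane arm, Ndufb9, a small protein of the LYR family that binds the acyl carrier protein, was lowest relative to control. It had 814 CPM in controls 1 and 3 together and 1041 CPM in control 2, against 322, 516 and 445 CPM in the libraries labelled Rbfox2-deleted 1, 2 and 3, with a log2 fold change of -1.12 (SE 0.283, edgeR adjusted p = 0.387). Every one of these libraries was well under the lower control. Ndufb9 (ENSMUSG00000022354) lies on chromosome 15 from 58933756 to 58939488, and 19.5% of its exon bases are shared with another annotated gene.

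Ndufb2 had 289 CPM in controls 1 and 3 together and 321 CPM in control 2, against 154, 170 and 202 CPM in the libraries labelled Rbfox2-deleted 1, 2 and 3. Ndufb5 had 367 and 389 CPM in the control samples and 270, 225 and 221 CPM in the others. For both genes the control samples were close together and the other libraries were under them. The log2 fold changes were -0.80 (SE 0.264, edgeR adjusted p = 0.414) and -0.66 (SE 0.242, edgeR adjusted p = 0.462).

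Ndufb6 had 251 CPM in controls 1 and 3 together and 377 CPM in control 2, against 200, 179 and 164 CPM in the libraries labelled Rbfox2-deleted 1, 2 and 3. Ndufb4, which stood on 2 rows of the table, had 253 and 313 CPM in the control samples and 194, 134 and 171 CPM in the others. Ndufa1, a small membrane subunit encoded on the X chromosome, had 229 and 359 CPM in the control samples and 178, 174 and 139 CPM in the others. In these 3 genes control 2 was clearly above controls 1 and 3, and the groups did not overlap. Their log2 fold changes were -0.79, -0.77 and -0.84, and with a transcript length correction 0.13, 0.05 and 0.19. Without control 2, Ndufb6 had -0.46 and Ndufa1 -0.47. Of the exon bases of Ndufb6, 39.0% are shared with Smim27. Ndufb11, the other member on the X chromosome, had -0.53. With the sex of the mouse in the model the values of Ndufa1 and Ndufb11 were -0.75 and -0.67. Those values compare the groups through the library labelled Rbfox2-deleted 2 alone.

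In the peripheral arm, Ndufs4, which holds the NADH-binding tip in place and whose loss in mice gives a Leigh-like disease, had 286 CPM in controls 1 and 3 together and 306 CPM in control 2, against 131, 153 and 199 CPM in the libraries labelled Rbfox2-deleted 1, 2 and 3. Ndufs6, a zinc-binding subunit, had 232 and 268 CPM in the control samples and 96.8, 173 and 143 CPM in the others. Both were lowest in the library labelled Rbfox2-deleted 1, and neither overlapped between groups. The log2 fold changes were -0.88 (SE 0.289, edgeR adjusted p = 0.414) for Ndufs4 and -0.86 (SE 0.335, edgeR adjusted p = 0.485) for Ndufs6. The processed pseudogene Ndufs6b had 217 to 1297 counts in the libraries, so that reads of Ndufs6 may be divided with it.

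The accessory subunits closest to control were Ndufa10, Ndufa9, Ndufv3 and Ndufb7. Ndufa9, which sits beside the ubiquinone site, had 374 CPM in controls 1 and 3 together and 365 CPM in control 2, against 305, 287 and 309 CPM in the libraries labelled Rbfox2-deleted 1, 2 and 3. It was the most even member across these 3 libraries, all of them under both controls, at a log2 fold change of -0.30 (SE 0.224, edgeR adjusted p = 0.799). Ndufv3, a subunit of the NADH-binding tip, had 257 and 272 CPM in the control samples and 236, 212 and 186 CPM in the others. Ndufa10 had 409 and 451 CPM in the control samples and 553, 328 and 267 CPM in the others, which put the library labelled Rbfox2-deleted 1 above both controls, as for Ndufv2. Ndufb7 had 551 and 764 CPM in the control samples and 541, 543 and 439 CPM in the others, at a log2 fold change of -0.37 that was -0.11 without control 2 and -0.62 without controls 1 and 3.

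The other 15 accessory members had log2 fold changes between -0.87 for Ndufs5 and -0.39 for Ndufa8, with edgeR adjusted p from 0.503 to 0.857. Groups did not overlap for 10 of them, all lower, where 17.2% of all genes were. In Ndufa6, Ndufa8, Ndufa11, Ndufb10 and Ndufc2 the library labelled Rbfox2-deleted 1 was at or above the lower control while the other two were under both. Ndufb8, with 1089 ± 317 CPM in control (SD, n = 2), had the highest level per kilobase of transcript, 1602 CPM, and Ndufa2, a subunit with a thioredoxin-like fold, came next at 1449 CPM per kilobase. Per kilobase of coding sequence Ndufa2 was highest at 2791 CPM, and Ndufb8 had rank 3 at 1952 CPM.

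**Figure D3:**
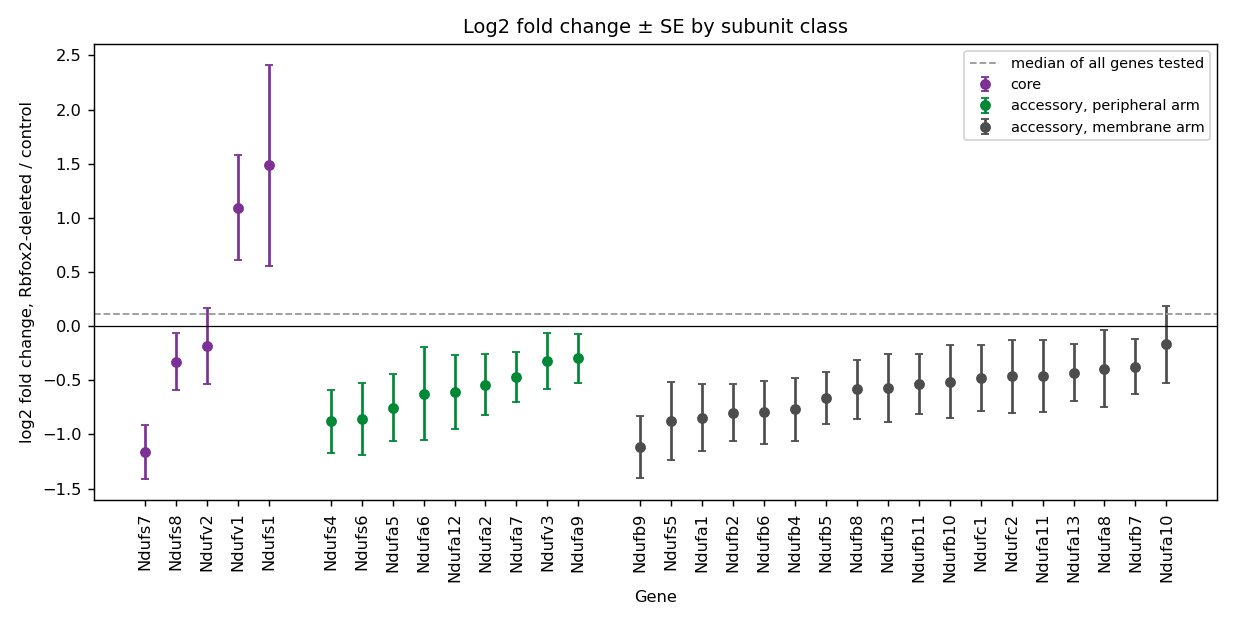
Log2 fold change (libraries labelled Rbfox2-deleted over control) of each member with its SE from edgeR, grouped as core, accessory of the peripheral arm and accessory of the membrane arm, with a dashed line at 0.11, the median of all genes tested. All 27 accessory subunits lie below 0, while the core subunits run from -1.16 for Ndufs7 to 1.49 for Ndufs1. With a transcript length correction, not drawn here, 5 of 27 accessory subunits lay below 0. With it, 22 of 27 lay below the median of all genes, then 0.43.

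Complex I genes are short, and length moved with the result. The median coding length was 433.5 bases for the members and 1332 bases for all genes tested. Among all genes tested, the 1688 with a coding length of up to 600 bases had a median log2 fold change of -0.44, and 36.4% of them were lower without overlap. The 24 members of that length, all accessory, had a median of -0.60, and 19 of them (79.2%) were lower without overlap. Of the 6642 genes above 1200 bases the median was 0.31. In the library labelled Rbfox2-deleted 1 the medians of all genes did not rise steadily with length. They were -0.42 up to 600 bases, -0.20 from there to 1200 bases and -0.59 above 1200 bases. The 3 members above 1200 bases are Ndufs1 (2181 bases), Ndufv3 (1404) and Ndufv1 (1392), and Ndufv3 was the only one of them below control. Ndufs7, Ndufs8 and Ndufv2, the core subunits below control, had coding lengths of 672, 636 and 744 bases.

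Across the 32 members, coding length and log2 fold change had a Spearman correlation of 0.49, a description of genes that share the same 5 samples. Over 11846 genes with a coding length it was 0.06, and by library it was -0.03, 0.04 and 0.09 in the libraries labelled Rbfox2-deleted 1, 2 and 3. The control samples differed from each other with coding length about as strongly. Across the members, the difference of control 2 minus controls 1 and 3 had a Spearman correlation of -0.48 with coding length. Its sign depends only on which control is subtracted from the other. In 20 other ways of processing, Ndufs1 and Ndufv1 were above control in 20, and the median of the members was below that of all genes in 20. The distance between these medians, -0.65, shrank to -0.28 with a correction for transcript length and to -0.37 with one for coding length. It also shrank with no length correction, to -0.23 with limma-voom, -0.21 with the replicate block and -0.19 with that block and a GC correction. With the length corrections the median of all genes was 0.43 and 0.40, and that of the members 0.15 and 0.02. The part of length in the difference between the groups beyond these values was not tested.

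**Figure D4:**
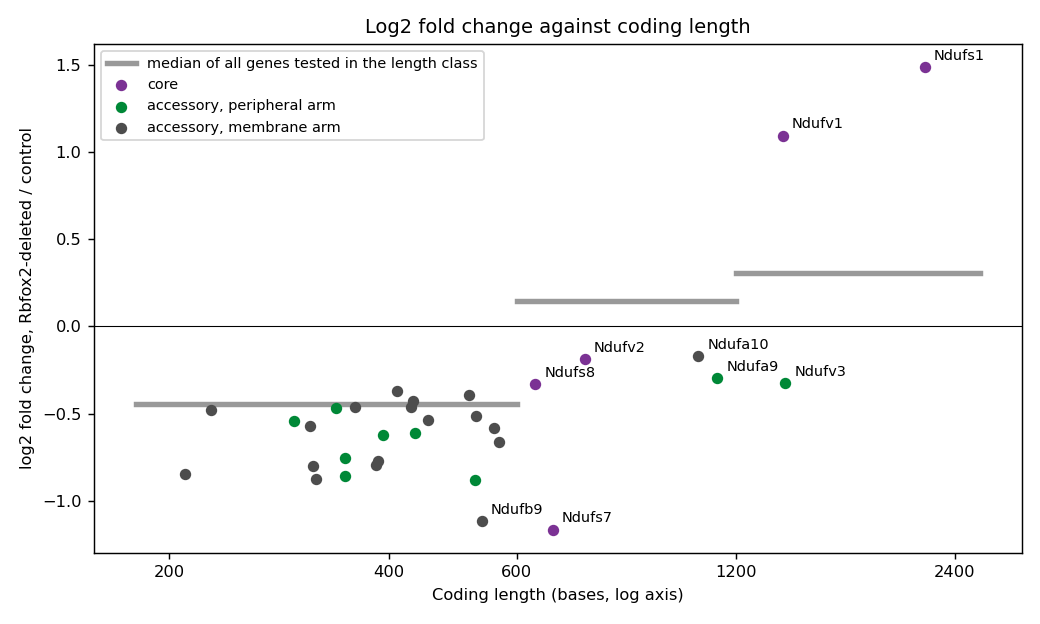
Log2 fold change of each member against its coding length (bases, log axis), coloured by class, with grey bars for the median of all genes tested in 3 length classes. The 24 members of up to 600 bases lie between -1.12 and -0.37 (grey bar at -0.44), and the 3 above 1200 bases between -0.32 and 1.49 (grey bar at 0.31).

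**Figure D5:**
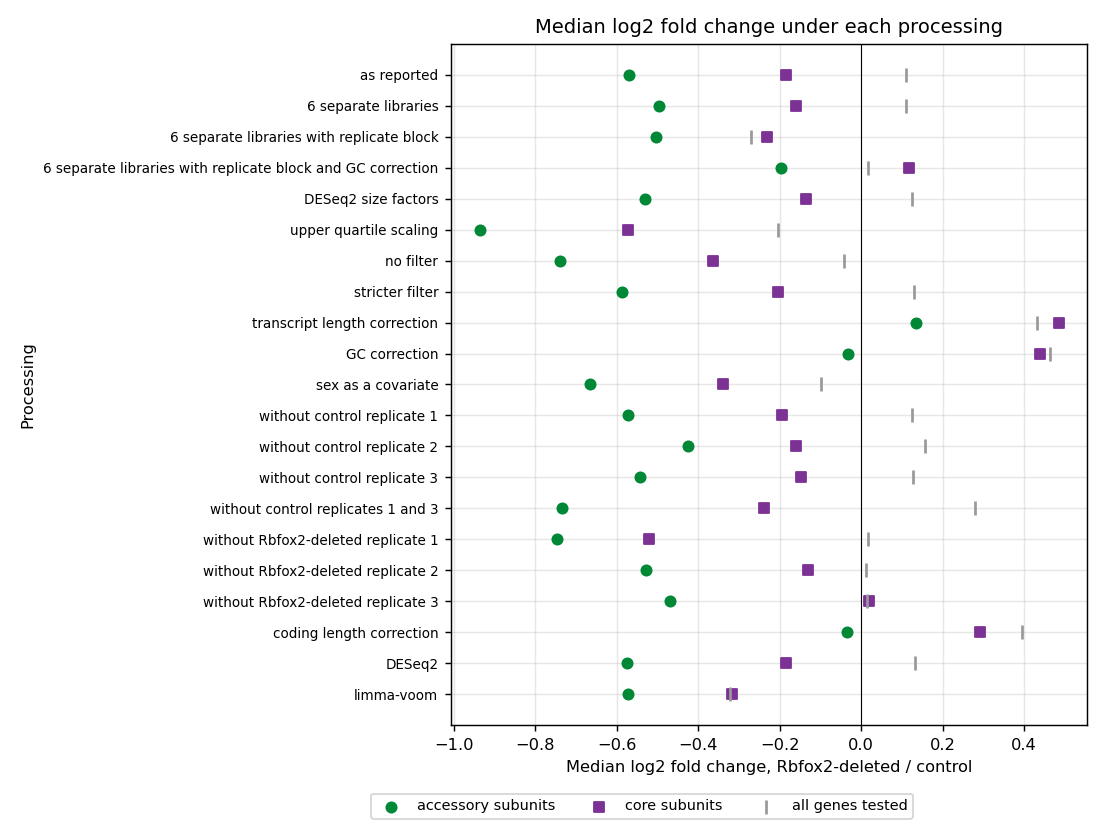
Median log2 fold change of the accessory subunits, the core subunits and all genes tested, as reported and under 20 other ways of processing, 1 row each. The core median is to the right of the accessory median in every row, while the accessory median moves from -0.94 with upper quartile scaling to 0.13 with a transcript length correction.

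The complex I genes of mitochondrial DNA, which encode the core of the membrane arm, lay on both sides of control. Of 7, 5 lay above control, with a median log2 fold change of 0.20. By library, the median was 0.63 and 0.12 in the libraries labelled Rbfox2-deleted 1 and 2, and -0.27 in the library labelled Rbfox2-deleted 3, where all 7 lay below control. Of the 7, 0 passed edgeR's test, 0 at an unadjusted p under 0.05. The mt-Nd1 gene had 1284 CPM in controls 1 and 3 together and 1109 CPM in control 2, against 1842, 1580 and 1120 CPM in the libraries labelled Rbfox2-deleted 1, 2 and 3, at a log2 fold change of 0.34 (SE 0.282, edgeR adjusted p = 0.831), which was 0.16 without the library labelled Rbfox2-deleted 1 and turned to -0.02 with upper quartile scaling. The lowest of these libraries was between the controls. The mt-Nd5 gene had a log2 fold change of 0.47, and 0.09 without the library labelled Rbfox2-deleted 1. Only mt-Nd4l was lower without overlap, with 125 and 118 CPM in the control samples and 51.0, 104 and 59.9 CPM in the others (log2 fold change -0.76, -1.15 without the library labelled Rbfox2-deleted 2 and 0.26 with a transcript length correction). Reads of mt-Nd4l and mt-Nd4, which overlap, cannot be fully separated.

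Assembly factors build the complex and do not stay in it. Of 18, 9 lay above control and 9 below, with a median log2 fold change of 0.12. In edgeR's test 0 passed, with 2 lower and 1 higher at an unadjusted p under 0.05, against 4.56% and 5.33% of all genes. Ndufaf1, which acts early in building the membrane arm, had 47.1 CPM in controls 1 and 3 together and 45.6 CPM in control 2, against 239, 110 and 87.9 CPM in the libraries labelled Rbfox2-deleted 1, 2 and 3. All 3 were above both controls, at a log2 fold change of 1.65 (SE 0.542, edgeR adjusted p = 0.414), and 1.08 without the library labelled Rbfox2-deleted 1. Tmem126a had -0.86 and Ndufaf8 -0.73, both without overlap between groups, and after a correction for transcript length they had 0.02 and 0.12. Ndufab1, the mitochondrial acyl carrier protein that is also a complex I subunit but falls outside the naming rule, had 121 and 163 CPM in the control samples and 174, 84.7 and 103 CPM in the others, and its groups overlapped. Ndufa4l2, with at most 4 counts in any library, was not tested.

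Regulators of respiratory genes were divided too. Of 13, 8 lay above control and 5 below, with a median log2 fold change of 0.19, and 0 passed edgeR's test, 0 at an unadjusted p under 0.05. By library, the median was -2.28, 0.11 and 0.57 in the libraries labelled Rbfox2-deleted 1, 2 and 3. The median of all genes was -0.45, -0.02 and 0.05. In the first of these libraries 9 of 13 were under both control samples (69.2%, against 51.8% of all genes tested). Gabpa and Gabpb2 had 1 count each there, and Tfb2m had 2. Nrf1, a transcription factor that binds promoters of many respiratory genes, had 12.2 CPM in controls 1 and 3 together and 10.02 CPM in control 2, against 51.3, 19.1 and 25.7 CPM in the libraries labelled Rbfox2-deleted 1, 2 and 3. All 3 libraries were above both controls (log2 fold change 1.53, SE 0.842, edgeR adjusted p = 0.664, and 0.995 on the log2 scale without the library labelled Rbfox2-deleted 1). Gabpb2, a partner subunit of the ETS factor GABP, had 11.9 and 10.4 CPM in the control samples and 0.0506, 2.67 and 2.68 CPM in the others, all lower (log2 fold change -2.62, SE 1.65, edgeR adjusted p = 0.720). Tfb1m, a methyltransferase of mitochondrial ribosomal RNA, had a log2 fold change of -0.83, and -0.44 without the library labelled Rbfox2-deleted 1.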

How the data were processed

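The authors deposited raw counts, whole numbers of reads for each Ensembl identifier, in a single table of 6 libraries. Smart-seq2, which copies full-length transcripts and keeps neither strand nor molecular identifiers, gave the libraries, per the labels' protocols. Trimmomatic 0.39, featureCounts, DESeq2 1.36.0 and build mm10 are named in the submitters' processing notes. Aligner, annotation and the handling of multiply matching reads: not given in the sources used here, so members with pseudogenes or overlapping neighbours have uncertain counts. Rows sharing an identifier (60 identifiers) were summed, and 22831 of 22969 identifiers had a symbol.

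Controls 1 and 3 were summed as 1 sample. Counts were tested across all genes with edgeR 4.0.16 in R 4.3.3 (filterByExpr with a minimum count of 10 and total of 15, TMM scaling, quasi-likelihood test, two-sided, Benjamini-Hochberg over 12350 genes, threshold 0.05), after tests on simulated data. P values measure the spread between 5 samples only. CPM were scaled by the TMM factors, and log2 ratios of a single library used a pseudocount of 0.5. SE is the size of the log2 fold change over the root of F. Alternatives used DESeq2 1.42.0 and limma 3.58.1. Transcript lengths and coordinates came from GENCODE M21 on mm10, using the longest transcript of best APPRIS rank, which need not be the form expressed. Length and GC corrections subtracted a loess trend per sample.

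One gene that meets the naming rule is not reported here, and counts and medians of the members leave it out. Members and lists were chosen with earlier results of these data known. Every core subunit described, the 8 accessory members with the smallest p and the 4 with the highest fold change were given in every sample, and up to 3 genes of each related list were named. Core ratios were chosen after their values were seen.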

Additional observations from a re-analysis of the deposited data

How the results depend on the processing

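Of 20 other ways of processing, 19 were planned and 1, the coding length correction, was chosen after seeing the data. The median log2 fold change of the members was below that of all genes in 20, by 0.19 to 0.99, and below 0 in 18. Ndufs1 and Ndufv1 were above control in 20. In the cases below the cause was not tested. Medians of the members, the core and the accessory subunits were -0.90, -0.57 and -0.94 with upper quartile scaling, 0.15, 0.48 and 0.13 with the transcript length correction, -0.015, 0.44 and -0.032 with the GC correction, and 0.023, 0.29 and -0.035 with the coding length correction. Members below control numbered 6, 17 and 15 under the transcript length, GC and coding length corrections, and accessory subunits 5, 16 and 14. The medians of all genes were 0.43, 0.46 and 0.40 under these corrections. Below those medians lay 24, 30 and 30 members, and 22, 27 and 27 accessory subunits. Leaving out libraries gave medians of -0.72 to -0.39 for the members, -0.75 to -0.43 for the accessory and -0.52 to 0.019 for the core subunits. Leaving out control 2, or controls 1 and 3, leaves 1 control sample, assumed to vary like the others. DESeq2 called 477 genes, edgeR 0.

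Correlations of deviations between libraries of the same replicate number were -0.046, 0.0024 and 0.070. Control 2 did not correlate best with its own number. Controls 1 and 3 were nearly identical, so their deviations from the group mean nearly match and mirror those of control 2. With the library labelled Rbfox2-deleted 3, controls 1 and 3 each had 0.070 and control 2 had -0.072. The check therefore cannot tell whether the numbers pair the samples. A fit of 6 libraries with the replicate block gave members a median of -0.48 and all genes one of -0.27, and called 0 genes. With the replicate block and GC correction the medians were -0.18 for members, 0.12 for core and -0.20 for accessory subunits.

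Signs of single genes turned as follows. With the transcript length correction the values were Ndufs8 0.48, Ndufv2 0.027, Ndufb5 0.086, Ndufb6 0.13, Ndufa1 0.19, Ndufb4 0.055, Ndufs6 0.070, Ndufa9 0.068, Ndufb7 0.56, mt-Nd4l 0.26, Tmem126a 0.022, Ndufaf8 0.12 and Ndufab1 0.47. With the GC correction they were Ndufs8 0.16, Ndufv2 0.44, Ndufa10 0.39, Ndufa9 0.17, Ndufv3 0.12, Ndufb7 0.17 and Ndufab1 0.43. With the coding length correction they were Ndufs8 0.17, Ndufv2 0.29, Ndufa10 0.21, Ndufb7 0.20, Ndufaf8 0.044 and Ndufab1 0.36. With the replicate block and GC correction they were Ndufv2 0.12, Ndufa10 0.066, Ndufa9 0.074, Ndufb7 0.059 and Ndufab1 0.16. Without the library labelled Rbfox2-deleted 3, Ndufv2 was 0.019 and Ndufa10 0.023, and without the library labelled Rbfox2-deleted 1 they were -0.54 and -0.55. The value of mt-Nd1 was -0.021 with upper quartile scaling, and that of Rbfox2 was 1.90 without controls 1 and 3. The fit rests on 2 control samples and has 3 residual degrees of freedom.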
